A study of Mus musculus with 3 samples.

Results

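The strongest distal open sites of haematopoietic stem cells (HSCs) were taken from a single assay for transposase-accessible chromatin (ATAC) library, in which the enzyme Tn5 cuts open DNA and each fragment carries the barcode of its cell. The cells were wild-type C57BL/6 bone marrow cells of 8-week-old female mice, sorted as LSK CD150+CD48-CD34- and processed by DOGMA-seq, which reads open chromatin, RNA and antibody tags from the same cells. The sites form a set of 2000 regions of 500 bp, called members below, of 4224170 eligible distal regions and of 4925483 regions that tile chromosomes 1 to 19 of the mm10 build. A region was eligible when it lay more than 10000 bp from the transcription start site (TSS) of every protein-coding gene in the GENCODE vM21 annotation. Members were chosen by the number of cells with a cut site in the region, among the 3108 called cells with over 3000 fragments in peaks. Another 29 distal regions were left out because over 5% of these cells had a base there covered by more than 2 fragments. All cells came from 1 preparation and 1 library with no replicate, so no difference below was tested, and each interval is an exact 95% binomial interval that covers counting error only.

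The cells used held 3977 to 194395 fragments each, with a median of 11457. HSC marker genes had a cut within 500 bp of the TSS in 0.161% to 39.99% of cells, with a median of 14.5% over 12 genes. Hlf, Mllt3, Meis1, Ctnnal1 and Kit were at the top, and Fgd5 (8.11%), Procr (6.02%), Slamf1 (3.31%), Ly6a (1.19%) and Mecom at the bottom. For 5 T cell and 5 B cell marker genes the share was 0.161% to 3.06%, for 4 erythroid genes 0.129% to 3.83%, and for 5 neutrophil genes 0.0965% to 2.32%. For 5 megakaryocyte genes the share ran from 1.03% at Ppbp to 24.9% at Itga2b, with a median of 12.6%, and for 5 endothelial or stromal genes from 1.19% at Cdh5 to 9.52% at Kdr.

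Distal open chromatin holds several kinds of element. Enhancers bind transcription factors and act on promoters at a distance, insulator sites bind CTCF and shape chromatin loops, and alternative or noncoding promoters can lie far from the main start of a coding gene. In HSCs, known enhancers carry binding sites for ETS factors such as FLI1 and ERG, for RUNX1, for GATA2 and for the E-box factors TAL1 and LYL1, often side by side. Nearness to a gene does not show that an element acts on it, so gene names below give position only.

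The following sequences show the letters at members on which the account turns. Each is the stretch of 200 bp within a member that held most cut sites, read from the plus strand of GRCm38, the assembly behind mm10. Capitals mark the motif cores that were searched on both strands: a CTCF core, named only, the ETS core AGGAAGT, the RUNX core TGTGGTT and the GATA core AGATAAG. The first pair are among the 3 members with most cells that held an ETS and a RUNX core. The stretch nearest to Prss12 lies at chr3:123508501-123508700, in intergenic sequence beside the noncoding gene Snhg8, in a member that was cut in 49.2% of cells. The stretch in an intron of Rara, the retinoic acid receptor alpha gene, lies at chr11:98942180-98942379, in a member that was cut in 46.9%.
Snhg8 site: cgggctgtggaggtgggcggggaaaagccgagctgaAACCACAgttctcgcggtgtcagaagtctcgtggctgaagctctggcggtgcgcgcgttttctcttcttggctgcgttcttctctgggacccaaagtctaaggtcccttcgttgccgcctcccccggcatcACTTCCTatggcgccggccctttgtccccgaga
Rara intron: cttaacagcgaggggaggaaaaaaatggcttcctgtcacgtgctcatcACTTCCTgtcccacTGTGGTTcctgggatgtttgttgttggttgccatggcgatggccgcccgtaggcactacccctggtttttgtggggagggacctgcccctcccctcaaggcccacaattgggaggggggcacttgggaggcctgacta

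In the other 6 members that the fixed rule picked, the stretch with most cuts lacked the full set of cores or overlapped an untranslated exon, so they are named only: members nearest to Pcmtd1, to Chd2 at 2 places, to Stag1, to Rab35 and to Por. The next 4 were picked after the values were seen, from the members with most cells that had no annotated start within 500 bp and held the cores within the stretch. They were cut in 43.6% (Foxk1), 32.6% (Bcan), 36.8% (Mta3) and 50.4% (Dad1) of cells. A CTCF core stood in intergenic sequence near Foxk1 at chr5:142367643-142367842 and near Bcan at chr3:87987025-87987224. An ETS and a RUNX core stood in an intron of Mta3 at chr17:83732247-83732446. A GATA core beside a RUNX core stood between the T cell receptor alpha constant gene Trac and Dad1 at chr14:54227504-54227703.
Foxk1 intergenic: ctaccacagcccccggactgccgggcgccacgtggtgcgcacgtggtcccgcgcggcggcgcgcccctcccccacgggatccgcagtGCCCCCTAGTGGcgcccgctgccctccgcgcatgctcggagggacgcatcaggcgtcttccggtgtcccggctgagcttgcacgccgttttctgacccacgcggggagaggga
Bcan intergenic: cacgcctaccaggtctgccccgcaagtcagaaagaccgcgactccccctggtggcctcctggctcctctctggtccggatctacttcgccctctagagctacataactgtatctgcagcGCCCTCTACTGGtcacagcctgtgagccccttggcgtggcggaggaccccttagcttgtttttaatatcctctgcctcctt
Mta3 intron: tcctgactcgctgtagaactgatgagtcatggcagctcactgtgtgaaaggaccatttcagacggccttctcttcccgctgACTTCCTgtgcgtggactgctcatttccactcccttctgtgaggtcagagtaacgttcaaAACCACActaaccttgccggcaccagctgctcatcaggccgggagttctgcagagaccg
Trac and Dad1 intergenic: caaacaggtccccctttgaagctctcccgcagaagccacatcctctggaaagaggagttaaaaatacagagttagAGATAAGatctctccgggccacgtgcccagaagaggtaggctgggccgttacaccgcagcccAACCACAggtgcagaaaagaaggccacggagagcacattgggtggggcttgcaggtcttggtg

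The last 4 show, for each of 4 HSC genes picked after the values were seen, the member nearest to that gene that was cut in most cells. Members nearest to other HSC genes, such as Nr4a1, were cut in more. They lie 27.1 kb upstream of Hlf at chr11:90418042-90418241, 24.2 kb downstream of the Runx1 TSS in an intron at chr16:92801651-92801850, 32.97 kb upstream of Gfi1 at chr5:107759191-107759390, and 156 kb downstream of the Kit TSS at chr5:75730799-75730998. The Gfi1 stretch held a RUNX core and the Kit stretch a GATA core, and the Hlf and Runx1 stretches held none of the 4 cores as spelled here.
Hlf upstream: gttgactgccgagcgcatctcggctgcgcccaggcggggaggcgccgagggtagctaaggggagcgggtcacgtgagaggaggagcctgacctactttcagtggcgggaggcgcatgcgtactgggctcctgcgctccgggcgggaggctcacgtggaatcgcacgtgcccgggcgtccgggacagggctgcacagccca
Runx1 intron: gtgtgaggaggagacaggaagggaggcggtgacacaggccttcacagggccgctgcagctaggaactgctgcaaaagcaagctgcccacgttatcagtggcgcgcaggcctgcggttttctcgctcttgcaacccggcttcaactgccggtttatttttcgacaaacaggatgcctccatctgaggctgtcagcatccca
Gfi1 upstream: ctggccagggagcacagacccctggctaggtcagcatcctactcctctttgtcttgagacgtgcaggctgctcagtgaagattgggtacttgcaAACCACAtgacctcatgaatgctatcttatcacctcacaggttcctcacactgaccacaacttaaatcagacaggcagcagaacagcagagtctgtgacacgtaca
Kit downstream: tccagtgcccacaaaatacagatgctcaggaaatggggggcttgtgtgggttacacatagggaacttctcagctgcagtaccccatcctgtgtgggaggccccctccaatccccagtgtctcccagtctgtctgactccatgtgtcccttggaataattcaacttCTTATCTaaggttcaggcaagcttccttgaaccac

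The members ranged widely in the share of cells with a cut. The most widely cut member lay 19.1 kb inside Kat6b, a histone acetyltransferase gene, and was cut in 2509 cells, or 80.7%. The median member was cut in 656 cells, or 21.1%, and the lowest in 475 cells, or 15.3% (interval 14.04% to 16.6%). The limit fell within a tie, since 20 eligible regions had 475 cells and 12 of them were taken in genome order. The last members inside the limit lay in introns of Def8 and Nfic and in intergenic sequence 54.99 kb from Cpsf6. The first regions outside, also at 475 cells, were the region that adjoins the Cpsf6 member, an exon of Zkscan17 and an exon of the noncoding gene B230206L02Rik, 77.95 kb from Tob1. The next 2000 regions in rank were cut in 332 to 475 cells. The median eligible region was cut in 1 cell, and 36.2% of eligible regions were cut in none.

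**Figure D1:**
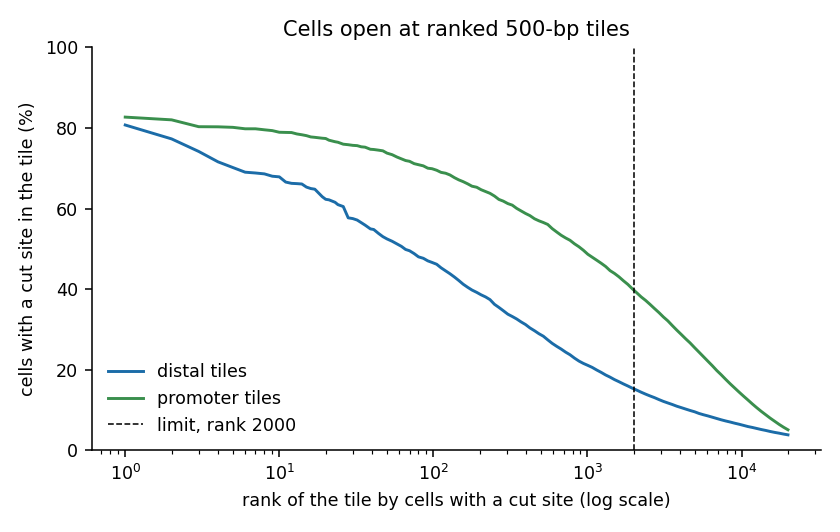
Share of the 3108 cells with a cut site in each 500-bp region (y axis, %) against the region's rank (x axis, log scale), for distal regions and for regions within 500 bp of a protein-coding gene TSS. The distal curve fell from 80.7% at rank 1 to 15.3% at the dashed limit of rank 2000, and the promoter curve lay above it, at 39.8% at rank 2000.

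The members took 1833862 of the fragments of the cells used on chromosomes 1 to 19, or 5.03% (5.03% to 5.04%), in 0.0473% of eligible regions. The next 2000 took 2.45%, and the 2000 most widely cut promoter regions took 13.2%. A single cell had a cut in 171 to 1769 members, with a median of 495. This number moved with depth. In the 10% of cells with fewest fragments the median was 283 members, and in the 10% with most it was 697. The share of a cell's fragments that fell in members was 4.85% to 5.52% between the quartiles.

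The same regions were counted in barcodes that the choice of members did not use. In the 649 called cells with 3000 or fewer fragments in peaks, the members took 4.86% (4.82% to 4.90%) of fragments and the next 2000 took 2.31% (2.29% to 2.34%). Barcodes not called as cells put 2.76% of fragments in the members and 1.41% in the next 2000. Among the 649 cells, the median member was cut in 26 cells, or 4.01%, against 14 cells, or 2.16%, for the next 2000. Of the members, 1879, or 93.95%, were cut in more of these cells than the median of the next 2000. These cells and the uncalled barcodes came from the same library as the cells that were ranked, and uncalled barcodes can carry free DNA of those cells, so the counts are a description.

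Many of the members stood at another annotated start. Of the 2000, 687 (34.4%) lay within 500 bp of the start of some transcript, against 23.2% of the next 2000 and 2.85% of all eligible regions. The starts belonged to further transcripts of protein-coding genes for 432 members and to transcripts of noncoding genes for 308, some to both. By the nearest start alone, 112 members stood at lincRNAs, 42 at processed transcripts, 39 at antisense genes, 15 at small nuclear RNA genes and 9 at small nucleolar RNA genes. The share with another start was 62.5% among ranks 1 to 200, 41.0% among ranks 201 to 500 and 27.2% among ranks 1501 to 2000. Since the members were chosen by the same values, this trend is a description.

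Among the 20 members with most cells, 15 were at another annotated start. The Kat6b member covered an internal start of Kat6b. Members at internal starts of Ssc4d and of Slc39a10, a zinc transporter gene, were cut in 74.2% and 71.6% of cells. The member 29.3 kb from Frmd8, cut in 68.0% of cells, covered the start of the antisense gene Frmd8os, next to the architectural RNA gene Neat1. The member at 13.4 kb from Cct8l1, in 70.2% of cells, was 13 bp from the start of the lincRNA 1700096K18Rik. The member nearest to Chd2, in 68.6% of cells, was 106 bp from the start of 1810026B05Rik. The member at the start of Zswim6 was cut in 68.8% of cells and was named for Smim15, 154 kb away, because this annotation classes Zswim6 as a processed transcript and not as protein-coding. The member at the start of 1700028E10Rik, within Gm42906, was cut in 66.2% of cells, and the member at Snhg8, a host gene of small nucleolar RNA, in 66.1%. Starts of a transcript of Dusp1, a MAP kinase phosphatase gene, and of Gm7008 within Ifrd1 were cut in 66.6% and 62.9%, and that of 6720427I07Rik in 62.3%.

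The 5 of these 20 with no annotated start within 500 bp were 2 members inside Ppp2r3d, an intergenic member 14.4 kb from Zfp395 (67.9% of cells), an exon of C87436 (65.3%) and an intergenic member 52.0 kb from Wnt7b (64.8%). Each of the 20 had a GC content above 50%. A little further down, members with no annotated start included one in intergenic sequence 22.0 kb from Ccne1, the cyclin E1 gene, with 61.0% of cells, one 17.4 kb from Zfp239 with 60.5%, one 18.4 kb from Fos with 57.5%, and one 12.6 kb from Prrc2b with 55.9%. A member cut in 53.0% of cells lay 829 bp from the start of Malat1, an abundant nuclear noncoding RNA.

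The 687 members at another start and the other 1313 differed in sequence and in place. Median GC content was 61.6% at members with another start and 52.4% at the others, against 65.4% at the most open promoter regions, 50.8% at the next 2000 with no other start and 41.0% over eligible regions. Regions rich in CpG, with an observed over expected ratio above 0.6 and GC above 50%, made up 64.2% of the first group and 14.9% of the second, 93.35% of the promoter regions, 4.82% of the next 2000 with no other start and 0.259% of eligible regions. Repeats covered a median of 8.6% of a member, against 22.6% of an eligible region, and 26 members were masked as repeats over more than 50% of their length.

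The profile of cut sites around the members is a description. Regions were ranked by cells with a cut in the same 500 bp. A raised centre, and the order of members and next 2000, therefore follow from the choice. Members with no other start held 75.4 cuts per 25 bp within 250 bp of their centre and 3.85 at 1500 to 2000 bp from it, a ratio of 19.6. Members with another start held 94.55 and 4.85, a ratio of 19.5, and the next 2000 held 35.8 and 2.96, a ratio of 12.1. The most open promoter regions held 211 and 3.999, a ratio of 52.7. Of fragments cut in members, 60.7% (60.7% to 60.8%) were shorter than the DNA of a nucleosome core. This share was 53.3% in the next 2000, 65.7% in the promoter regions and 37.5% over eligible regions. It was 59.96% at members with another start and 60.9% at the others.

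**Figure D2:**
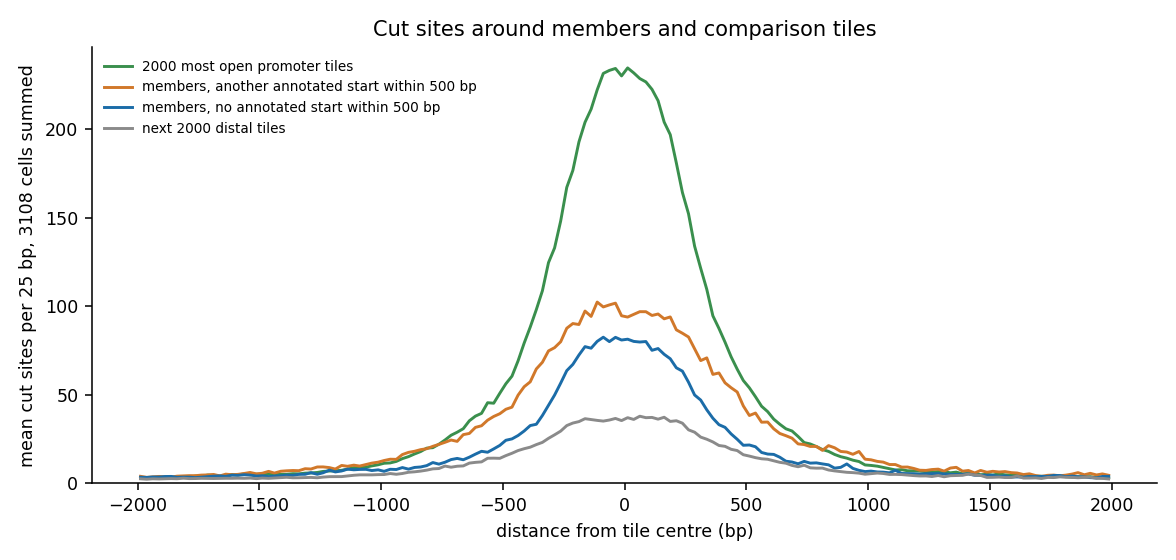
Mean number of cut sites per 25 bp, summed over 3108 cells (y axis), against distance from the region's centre (x axis, bp), for the members split by other annotated starts, the next 2000 distal regions and the 2000 most open promoter regions. Within 250 bp of the centre, members averaged 75.4 and 94.55 cuts, between the next 2000 at 35.8 and the promoter regions at 211. Members and the next 2000 were ranked by cuts in this same window, so their order follows from the choice.

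By place, 660 members (33%) touched an exon of any gene, 522 (26.1%) lay in introns of protein-coding genes, 90 (4.50%) in noncoding genes only and 728 (36.4%) between genes. With no other start, 126 of 1313 touched an exon (9.60%), 430 were intronic (32.7%) and 682 were intergenic (51.9%). Over eligible regions these shares were 7.19%, 32.2% and 54.5%. In the next 2000 with no other start, introns held 38.7% and intergenic sequence 45.4%. Of the 999 members inside a protein-coding gene, 679 (68.0%) had that gene as the nearest by TSS. The long read-through gene Gm20388 on chromosome 8 is annotated as protein-coding and spanned 33 members, 8 of them with no other host.

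The members lay closer to coding genes than the eligible regions did. The median distance to the nearest protein-coding TSS was 31.9 kb for members, 33.2 kb for the next 2000 and 108 kb for all eligible regions. Of the members, 798 (39.9%) lay at 10 to 25 kb and 42 (2.10%) beyond 250 kb, against 15.9% and 30.4% of eligible regions. The farthest lay 838 kb from the TSS of Pde4d, a cAMP phosphodiesterase gene, within its introns, with 16.7% of cells. The others of the 5 farthest were intergenic 696.5 kb from Neto1 with 28.7% of cells, in an intron of Zfhx3 597 kb from Pmfbp1 with 16.2%, intergenic 466 kb from Gm11232 with 16.3%, and in another intron of Pde4d 458 kb from Rab3c with 20.8%. Per 10000 eligible regions, chromosomes held 2.99 members (chromosome 1) to 8.75 (chromosome 17), with 8.44 on chromosome 19 and 7.49 on chromosome 11.

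**Figure D3:**
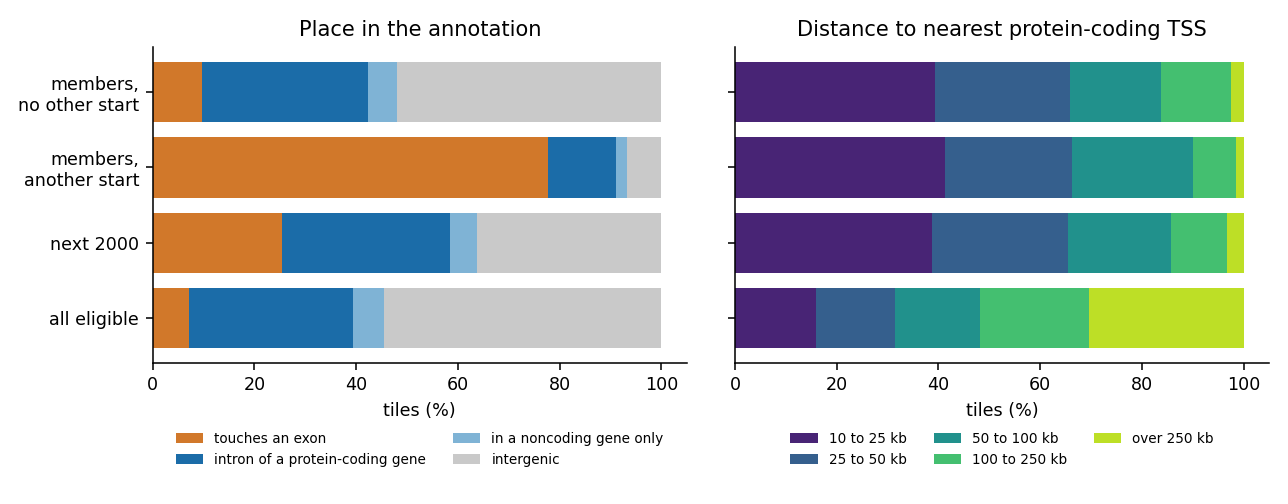
Percent of regions (x axes) by annotated place (left) and by distance to the nearest protein-coding gene TSS (right), for members with and without another annotated start, the next 2000 regions and all eligible regions. Exons took 77.7% of members with another start and 9.60% of those without, and 39.2% of the latter lay at 10 to 25 kb against 15.9% of eligible regions.

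Members often adjoined each other. Joined where they touched, the 2000 members made 1546 sites, of which 1175 were a single region, 312 were a pair and 59 were longer, up to 7 regions in a row. The next 2000 made 1871 sites, 3 of them of 3 or more regions. With gaps of up to 25 regions' length bridged into domains, 51.3% of members had another member in the same domain, against 29.9% of the next 2000, and there were 101 domains of 3 or more members against 53. Counting each joined site once, 17.4% of member sites and 20.1% of the next 2000's sites had another site within that distance. Where a region of the next 2000 adjoined a member, as near Cpsf6, that neighbour was not counted for it. The effect of this on the comparison was not tested.

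The 3 largest domains held 7 members each. The first was a run of 7 adjoining regions at an internal start of Ppp2r3d, which encodes a regulatory subunit of protein phosphatase 2A, at chr9:124422501-124426000. From its start to its end the regions were cut in 51.6%, 77.3%, 60.7%, 64.6%, 65.0%, 66.2% and 69.0% of cells. Its least open region was cut in more cells than the lowest region of any of the other 9 largest domains, and 98.9% of cells had a cut in at least 1 of the regions. A base covered more than 2 times was seen here in 0.483% to 2.61% of cells, with the filter set at 5%. The other members among the 4 with most cells had 3.12% (Kat6b), 1.16% (Ssc4d) and 2.12% (Slc39a10).

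The domain nearest to Nanos3, at chr8:84197501-84211000, spanned 13.5 kb and included members beside the microRNA gene Mir23a and the noncoding gene Gm26887. Its members were cut in 16.02% to 41.7% of cells, and 82.6% of cells had a cut in at least 1. The domain nearest to Hfe2, at chr3:96489001-96502000, spanned 13.0 kb of intergenic sequence and ranged from 16.02% to 40.2%. Of the domains with 6 members, the one at Frmd8os ranged from 17.6% to 68.0%, one near Klrb1b, a lectin receptor gene of the natural killer cluster, ranged from 15.3% to 46.2%, and one across internal starts of Nr3c1, the glucocorticoid receptor gene, ranged from 18.05% to 37.7%. Another 10 domains tied at 5 members, and the 4 of them with the most widely cut members lay near Klrb1c, at small nuclear RNA genes within Tex14, between Krt78 and Krt8, and across starts of Hmgb1, a chromatin protein gene.

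Motif letters separated the classes of member. Among members with no other start, an ETS core was found in 23.7% (21.4% to 26.1%), a RUNX core in 17% (15% to 19.1%), a GATA core in 10.9% and a CTCF core in 8.61% (7.15% to 10.3%). Over eligible regions of the same length these letters were found in 11.7%, 11.2%, 7.39% and 0.224%. At members with another start the shares were 13.8%, 8.30%, 3.78% and 3.78%, and at the most open promoter regions 9.10%, 3.90%, 2.10% and 1.15%. With or without another start, the shares were 20.3%, 14.0%, 8.45% and 6.95% over all members. Over the top 4000 regions they were 20.88%, 14.15%, 7.95% and 8.975%. ETS and RUNX cores thus did not set the members apart from the regions next in rank. The longer core GAGGAAGT of PU.1, which contains the whole ETS core, was found in 8.16% of members with no other start and 3.02% of eligible regions. The E-box CAGCTG was in 31.8% against 16.8%. The GC-box of SP factors, GGGGCGGGG, was in 23.6% of members with another start, 7.62% of those without and 40.75% of the promoter regions, and the NFY box CCAATCAG in 4.80%, 3.05% and 11.85%. These groups differ in base composition, which changes how often letters occur, and its part in the differences was not tested.

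The AP-1 core TGANTCA was in 17.5% of members with no other start and 14.5% of eligible regions, the MEIS core TGACAG in 31.2% and 28.7%, and the CEBP core TTGCNNAA in 18.75% and 22.2%. The KLF core CCACACCC was in 5.87% and 2.85%, the STAT core TTCCNGGAA in 2.44% and 1.27%, and the IRF core GAAANTGAA in 3.51% and 5.77%. The HLF core TTACGTAA was in 4 members (0.20%, against 0.105% of eligible regions), and the EVI1 core GATAAGATA in 6 (0.30% against 0.382%), too few to compare. An ETS and a RUNX core occurred together in 56 members with no other start (4.27%), against 4.69% of the next 2000 with no other start and 1.29% of eligible regions. A CTCF core was in 12.9% (11.3% to 14.7%) of the next 2000 with no other start and in 8.61% of such members. Adjoining regions are not independent, and this difference was not tested. Over all members, with or without another start, it was in 4.0% at ranks 1 to 200, 2.67% at ranks 201 to 500 and 9.60% at ranks 1501 to 2000, while the share with another start fell over the same ranks.

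Motif letters also varied with the members' surroundings. ETS cores were in 29.3% of intronic and 20.4% of intergenic members with no other start, RUNX cores in 19.8% and 15.5%, and GATA cores in 13.7% and 8.80%. CTCF cores were in 6.51% and 8.65%, and AP-1 cores in 16.98% and 18.3%. Of the 716 members with no other start that stood alone, 24.7% held ETS cores and 18.6% RUNX cores. Of the 198 such members in domains of 3 or more, 14.1% and 11.1% did (28 and 22 members). Regions in these domains often adjoin and are not separate sites, and the difference was not tested. The 113 members with a CTCF core and no other start were cut in a median of 18.9% of cells (quartiles 16.6% and 22.5%) and lay a median of 22.9 kb from a coding TSS. The 1200 with no CTCF core and no other start were cut in a median of 20.6% (quartiles 17.3% and 26.35%) and lay a median of 34.3 kb away.

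**Figure D4:**
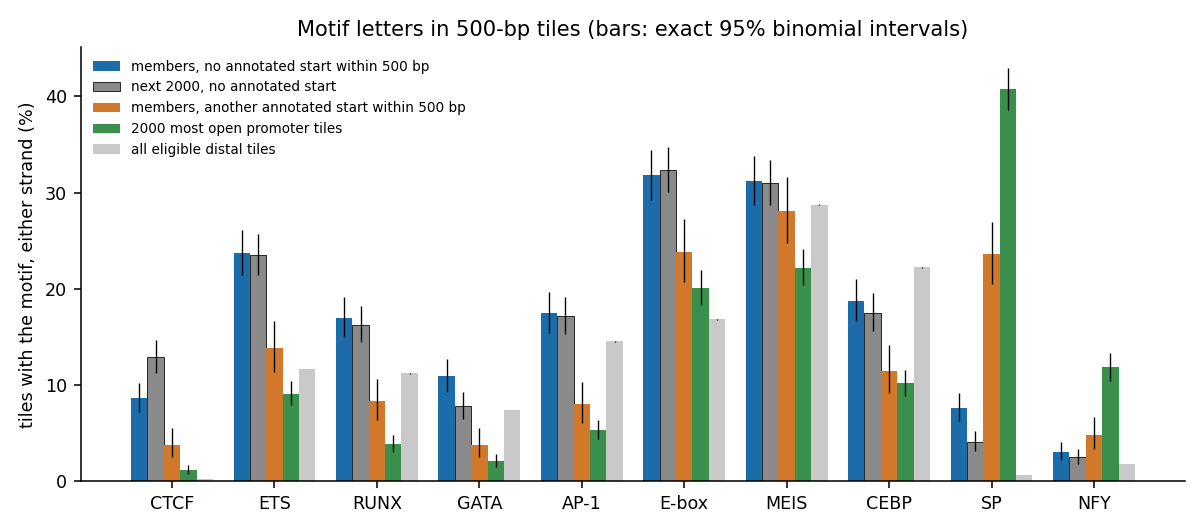
Percent of 500-bp regions that hold each motif on either strand (y axis), with exact 95% binomial intervals, for members without and with another annotated start, the next 2000 with no other start, the most open promoter regions and all eligible regions. ETS stood at 23.7% and CTCF at 8.61% in members with no other start, and SP at 40.75% in the promoter regions.

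The members were spread over many genes. Of 20807 protein-coding genes, 1257 (6.04%) were nearest by TSS to at least 1 member, 798 of them to 1 member and 34 to 5 or more. The 10 genes described next have most members, except that Dnmt3a, a DNA methyltransferase gene that limits HSC self-renewal, tied with the last at 7 members, all with no other start and cut in 15.7% to 32.8% of cells. The 11 members nearest to Tex14, a germ cell gene, were all within 500 bp of another start, chiefly those of the small nuclear RNA gene Rnu1a1 and the small nucleolar RNA genes Rnu3b1 to Rnu3b4, and were cut in 16.6% to 43.95% of cells. The 9 members nearest to Gse1 were all intronic with no other start, lay 48.0 to 143 kb downstream of its TSS and were cut in 15.6% to 34.0% of cells. The 8 members nearest to Cbfa2t3, a corepressor gene of blood cells, lay on both sides of its TSS at 12.9 to 33.6 kb, with 40.8% of cells at the highest, 20.4 kb upstream. Of the 8 nearest to Haao, all were upstream, at 13.5 to 142.5 kb, with 15.5% to 35.1% of cells.

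Smad7, which encodes an inhibitor of transforming growth factor beta signalling, was nearest to 7 members, none at another start. They lay from 88.5 kb upstream, in an intron of Dym and cut in 47.1% of cells, to 24.97 kb downstream in an intron of Smad7 itself, cut in 15.9%. The 7 members nearest to Klrb1c, the gene of a natural killer cell receptor, had no other start and reached 61.5% of cells, within Gm44511. The 7 nearest to Serp2 included 3 at an internal start of Tsc22d1 and reached 37.1%. Ppp2r3d, Nanos3 and Hfe2 were each nearest to the 7 members of the domains described above.

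Genes of HSC transcription factors were nearest to members more often than genes at large. Of 40 such genes, 21 (52.5%) had at least 1 member nearest, against 6.04% of all protein-coding genes, and 19 (47.5%) had one with no other start, against 4.30%. The list was written with earlier results of these data known. Genes with wide intergenic flanks are nearest to more eligible regions, and per 10000 eligible regions nearest to them the list held 14.4 members against 4.73 over all genes. By the same measure the granulocyte and monocyte list held 24.25, genes of signalling and cytokine feedback 18.45, receptors 14.2 and cell cycle genes 10.7, so a rate above that of all genes was not particular to transcription factors. The 39 members of this list were cut in 15.3% to 49.7% of cells with a median of 20.3%. Downstream of the TSS lay 30 of them, including runs at Mecom and Egr1, and upstream 9. Adjoining members are not separate sites, so these counts are a description. Introns held 15, intergenic sequence 16 and exons 7.

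Several of the strongest of these stood at or beside further starts. A member over an internal start of Nr4a1, an orphan nuclear receptor gene, was cut in 49.7% of cells, and another 13.3 kb upstream in 16.2%. Mecom, which encodes EVI1 and is required by HSCs, had 4 members, all within the gene at 32.5 to 39.5 kb downstream. They were cut in 32.6%, 43.7%, 20.3% and 26.1% of cells, while the gene-level TSS itself was cut in 0.161%. The first 3 adjoined each other. Of these the second and the third lay within 500 bp of an internal start and the first 987 bp from it, and the fourth member lay 5179 bp from the nearest start. Mef2c had a member over an internal start 68.0 kb downstream with 38.2% of cells. Ets1 had 4 members, of which a pair at an internal start 59.3 to 59.8 kb downstream were cut in 30.7% and 23.7%.

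Members clear of any start were nearest to many factors that maintain HSCs. Gfi1, a repressor that restrains HSC cycling, had one 32.97 kb upstream, in an intron of Evi5, with 36.9% of cells (35.2% to 38.6%). Hlf, a bZIP factor that marks HSCs, had one 27.1 kb upstream with 32.3% (30.7% to 34.0%). Meis1, a homeobox cofactor gene, had one 141 kb downstream with 29.4% and one in an intron at 48.5 kb with 25.7%. Runx1 had one in an intron 24.2 kb downstream with 28.7% (27.1% to 30.3%). Egr1, an early response gene, had a run of 3 at 27.2 to 28.2 kb downstream with 18.9%, 25.3% and 17.6%.

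The others were cut in fewer cells. Erg had 2 intronic members at 133.6 and 147.1 kb downstream, with 16.9% and 23.75% of cells. Prdm16 had 2 intronic members with 16.6% and 21.2%, Tcf15 had one 11.9 kb downstream with 23.4%, and Bcl11a had an adjoining pair 148 to 149 kb downstream with 22.1% and 17.6%. Nkx2-3 had 4, at 11.7 to 40.8 kb on both sides, with up to 17.8%. Lmo2 had 3, 2 of them at an internal start, with up to 19.8%. Etv6, Mycn, Ldb1, Fli1 and Zfpm1 had 1 each, with 15.3% to 17.6%, the Ldb1 one at a start of Pprc1.

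**Figure D5:**
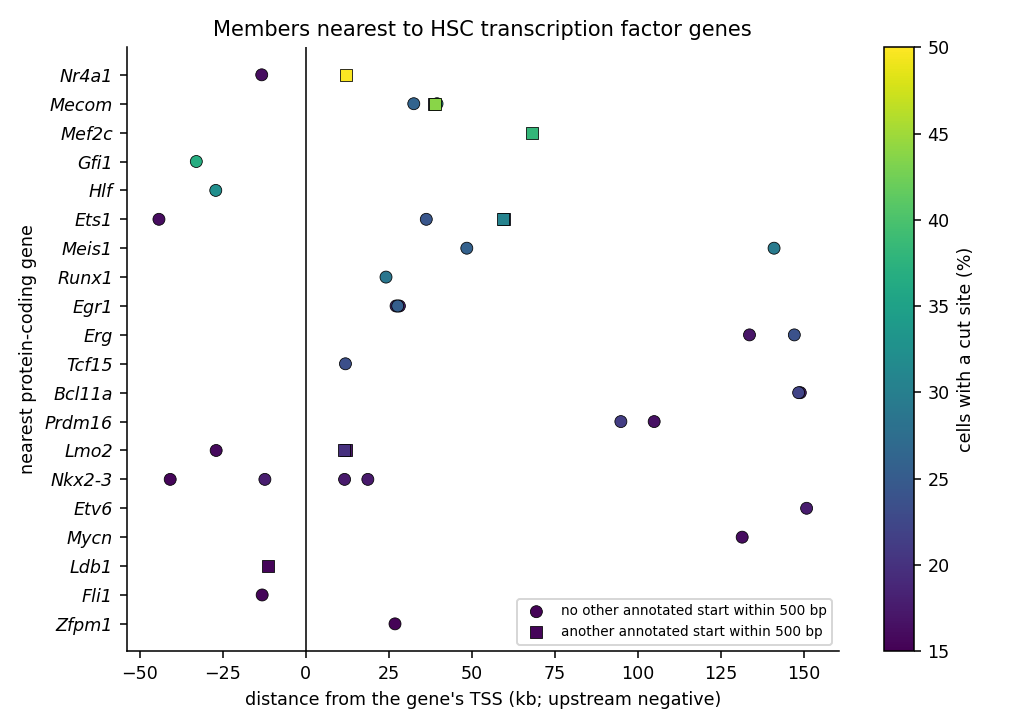
Members nearest to genes of HSC transcription factors: distance from the gene-level TSS (x axis, kb, upstream negative), one row per gene, coloured by the share of cells with a cut (%), with squares at another annotated start. The plot draws 38 of the 39 members, most of them downstream of the TSS and some in runs of adjoining members. The highest share was 49.7% at Nr4a1.

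No member was nearest to 19 of the 40. Spi1, which encodes PU.1, missed the limit narrowly, with its strongest eligible region at rank 2078, 14.1 kb away, cut in 14.96% of cells. For Tcf4 and Myc the strongest eligible regions were cut in 14.6% and 12.3%, 250 and 121 kb away. Foxo3, Myb, Hmga2, Ikzf2, Zeb2, Gata2 and Hhex reached 5.31% to 9.07%. Cbfb, Cebpa, Gfi1b, Tal1, Lyl1 and Elf1 reached 1.03% to 3.83%. Hoxa9, Hoxb4 and Nfe2 were nearest to no eligible region at all, and Lyl1 to 1, so for genes in dense neighbourhoods the rule had little or nothing to rank.

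Lists of other genes are to be read against the same 6.04% of all genes. Of 33 receptors and surface proteins of HSCs, 7 (21.2%) had a member nearest: Kit with 2, at 156 kb downstream, the higher cut in 39.1% of cells; Cxcr4, the receptor that holds HSCs in the niche, with 1 at 22.7 kb upstream and 35.3%; and Cd34, Notch1, Itga6, Vwf and Tgfbr2 with 1 to 3 at up to 21.6%. Vwf, a gene of the platelet programme, had an intronic member 26.2 kb downstream with 21.6% and one beside an internal start with 17.7%. Of 24 genes of signalling and cytokine feedback, 7 (29.2%) had a member nearest, among them Skil, another antagonist of Smad signalling, with 3 members and up to 39.6% of cells, and Cish, a cytokine-induced inhibitor, with a pair at 21.98% and 25%. Of 19 cell cycle genes 6 (31.6%) did, with 4 members in a row 21.0 to 22.5 kb from Ccne1 at 17.4% to 61.0%.

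Genes of mature lineages and other tissues were also listed. None of 17 T cell genes, 15 B cell genes and 12 erythroid genes was nearest to a member, though 1 member lay inside the T cell gene Lck. The share over all genes was 6.04%, so for lists this short a count of 0 lies near the background. The erythroid genes were nearest to only 1056 eligible regions in all, the T cell genes to 4723 and the B cell genes to 3600. The granulocyte and monocyte list had 3 of 16 (18.75%), Fcgr3 with 33.7% of cells, Irf8 with 16.6% and Ly6c2 with 15.6%. In the liver list 1 of 15 did, Pck1, and in the neuron list 1 of 15, Rbfox3, both at 6.67%, near the background. The member with a GATA and a RUNX core between Trac and Dad1 belonged to none of these lists, since Dad1, a general oligosaccharyltransferase gene, was the nearest coding gene, and it was cut in 50.4% of cells. Trac is not classed as protein-coding in this annotation, and its neighbourhood holds the well-known enhancer of the T cell receptor alpha locus.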

How the data were processed

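The series holds 1 ATAC library, which the authors processed with Cell Ranger ARC 2.0.2 on the mm10 reference. They deposited its fragments, 42000180 in all, and a table of counts per barcode (fragments, fragments in peaks, cell call). No source used here says whether fragment ends were shifted for the transposase, so the ends stand as deposited. The antibody tag counts were not used, and RNA counts were not analysed here.

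No doublets were removed. A cut site was either end of a fragment, and a cell counted once per region. Counting was done in Python 3.11.15 with numpy 2.4.6, pandas 2.3.3 and scipy 1.17.1 and checked on simulated fragments. Figures were drawn with matplotlib 3.10.9, and sequence was read with samtools 1.23.1. Gene-level TSSs, exons and transcript starts came from GENCODE vM21. Exons took precedence over introns, and ties went to the lower coordinate. Domains bridged gaps of up to 25 region lengths. Promoter regions lay within 500 bp of a protein-coding gene TSS, and the 2000 with most cells were compared.

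Named genes were those of the 20 members with most cells, the 10 genes with most members, the 10 largest domains, the 5 farthest members, the regions at the limit, the 5 top members at noncoding starts and the gene lists. The members and lists were chosen with earlier results of these data known. 1 gene of the lists is not reported here by name, though the counts over its list include it.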

Additional observations from a re-analysis of the deposited data

How the results depend on the processing

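All cells came from 1 library, so the values carry no error between samples, and nearest genes are positions, not targets. No paired analysis was possible because the groups hold 1 sample each and no test was made. Of 215 values recomputed under 17 alternatives, 175 stayed within the tolerance set for them. It was the reported value's interval for the lowest member's share of cells and the 2 shares of fragments, the interval of the median for distance, and 1.5 times for all else, so some values given next moved little in size. The 175 included every value for the shares of members in introns (23.0% to 34.65%), between genes (35.15% to 53.15%) and with another member in the domain (46.15% to 58.6%), and with CTCF (4.9% to 9.6%), ETS (19.3% to 24.0%), RUNX (12.2% to 16.95%) and GATA (7.4% to 10.4%) cores. Some values were fixed by the alternative itself, so the tally is a description. Examples are the 50.0% shared by the top 4000 and the 0.0% at another start once such regions were left out.

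Measured from starts of all transcripts of protein-coding genes, the lowest member was cut in 12.16% of cells, 16.1% of members were at another start, the median distance was 27.11 kb, members took 3.931% of fragments, 59.93% of them short, and 63.7% of members were shared with the reported set. With regions more than 25000 bp from every TSS, these values were 11.74% for the lowest member, 54.98 kb, 3.934% of fragments, 59.89% short and 60.1% shared. Leaving out regions at any annotated start, chosen after seeing the data, gave 12.61% for the lowest member, 0.0% at another start, 3.947% of fragments, 60.23% short and 65.65% shared.

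The top 1000 regions gave 21.11% for the lowest member, 48 domains of 3 or more, 3.405% of fragments, 61.76% short and, as a count added after seeing the data, 13 HSC transcription factors with a member. The top 4000 gave 10.68%, 288 domains, 7.188% of fragments, 59.34% short and 50.0% shared. With dense regions kept, members took 5.901% of fragments, 58.91% short. With the filter on dense regions counting fragments that overlapped the region, these were 4.597% and 59.18%, and with that filter set at 5% of the cells with a cut they took 5.011% of fragments. Without regions over 50% masked the share of fragments was 5.021%. Without the 10% of cells with most regions covered over 2 times, left out as possible doublets, it was 5.136%, with 60.82% short. Thinned to 3000 fragments a cell, the lowest member was cut in 4.601% of cells, and the shares were 5.331% of fragments and 60.28% short. With all called cells the lowest member was cut in 13.12%. Regions shifted by 250 bp gave 60.9% short, and a limit of 120 bp gave 54.79%.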

Other observations

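The 29 dense distal regions that were left out all had at least as many cells as the last member and lay in 11 separate runs. Of these, 13 formed a stretch of chromosome 17 where the annotation holds ribosomal RNA sequence and the noncoding genes Gm26917 and Gm42418. The regions of that stretch were cut in 47.4% to 98.0% of cells, and the most widely cut of them had a base covered more than 2 times in 83.6% of cells.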
